A study of Mus musculus with 24 samples.

Results

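The ventricle of the mouse heart was compared between embryonic day 12.5 (E12.5) and the neonate, on 3 arrays of each age. Both groups were ventricles taken from the inbred mouse strain FVB, with no treatment or engineered allele given in the labels, and total RNA of each sample was hybridised to a single-channel Affymetrix mouse array. The labels do not give the sex of these samples or the age of the neonates in days. Each E12.5 title holds 3 numbers and each neonate title 2, without saying whether they stand for pooled animals. The labels do not say whether the samples came from separate animals. The p-values here measure only how far these arrays differ, which may in part be technical. Sex-linked signals, given below, show that neonate array 1 was not a repeat of neonate array 2 or 3. The comparison covers every probe set (the group of short probes that reads 1 transcript) that was not 0 on all 24 arrays of the series and was not a control: 9977 of 12654. Of these, 9952 were tested, and those with 1 gene symbol stand for 7406 genes. Another 6 groups of 3 arrays, from 1 week to 1 year, entered the estimate of the spread and are used here for the later course of the genes.

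At E12.5 the ventricle is a thin wall of dividing, weakly coupled myocytes, supplied with oxygen by diffusion and by embryonic red cells that are still nucleated. By birth it has a coronary circulation, a compact wall, fibroblasts and matrix, and it begins to change its fuel from carbohydrate to fat as it starts to work against the pressure of the systemic circulation. Myocytes leave the cell cycle soon after birth, so a comparison across this interval takes in differentiation, growth and a change in the mix of cells.

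The 6 arrays had been scaled to the same mean and had median signals between 211.4 and 225.0. Log2 signals correlated across probe sets with r from 0.916 to 0.929 among the E12.5 arrays, 0.932 to 0.937 among the neonates and 0.871 to 0.892 between the ages (probe sets are not independent of each other). The probe set that reads the 3' end of 18S ribosomal RNA, a control, gave 3726 to 8666 at E12.5 and 560 to 1210 in neonates (group ranges that do not overlap), and the ratio of 3' to 5' actin signal, a measure of RNA integrity, 0.853 to 1.234 and 1.112 to 1.283. The part of these differences in the results was not tested. Of the 10 measured ventricular myocyte markers none lay under the background level in both groups, and their summed signal ran from 110095 to 123434 at E12.5 and from 177513 to 200286 in neonates. Summed signals of other cell types moved as well: fibroblast and epicardial markers from between 17102 and 18911 to between 41847 and 52619, endothelial markers from 12586 to 13393 up to 17773 to 19194, and erythroid markers from 74080 to 136763 down to 37589 to 41215. Bright genes weigh most in such sums, and the lists were not uniform. Of the 15 fibroblast and epicardial genes 8 rose and 1 fell, and 9 of the 15 differences were above 0. Of the 16 endothelial genes 5 rose and 2 fell. Lymphocyte, neural, lung and liver, and cartilage and bone lists overlapped between the ages. Adipocyte markers went from 1119 to 1265 up to 2379 to 3394. Of these 8 genes 3 rose and 4 were under the background level in both groups, and Adipoq and Lep did not pass. Macrophage and granulocyte markers went from 2021 to 2444 up to 3781 to 4335, where 4 of 17 rose and 5 were under that level in both groups. Smooth muscle and pericyte markers went from 13057 to 15118 down to 10110 to 11527. Skeletal muscle markers went from 5431 to 6438 down to 2762 to 3213, where 2 of 14 genes fell and 7 were under the background level in both groups. Most of that fall was in Acta1, also counted below as a thin filament gene, with means of 4081 at E12.5 and 1432 in neonates. In bulk tissue, fewer cells of a type and less RNA per cell cannot be told apart. Xist, the RNA of the inactive X chromosome, gave 1729, 1248 and 886 on the E12.5 arrays and 2496, 131 and 12.8 on the neonate arrays, and the Y-linked Eif2s3y gave 108, 259.6 and 335 and 11.9, 536 and 496, so the neonate arrays differ in sex-linked signal. On E12.5 arrays 2 and 3 both were above the background level, and on array 1 only Xist was.

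Of the 9952 probe sets, 1687 (17.0%) passed an adjusted p of 0.05 in limma, 937 higher (9.42%) and 750 lower (7.54%) in neonates; of the genes, 786 were higher (10.6%) and 586 lower (7.91%). Most of these differences were moderate. Of the probe sets past the threshold, 4.0% differed by less than 0.5 on the log2 scale, 41.4% by 0.5 to 1, 39.4% by 1 to 2, 11.7% by 2 to 3 and 3.5% by more than 3. Of all tested probe sets, the middle 50% lay between log2 differences of -0.45 and 0.47, and 90% between -1.29 and 1.32. The shares over all genes, 10.6% higher and 7.91% lower, are the base for the counts of each gene list below. The number called followed the signal, so that base is not matched for signal. In the highest of 5 equal classes of mean signal 42.1% were called, 545 higher and 293 lower, with a median standard error (SE) of 0.18, whereas in the lowest class 3.5% were called, 16 higher and 54 lower, with a median SE of 0.61. In a simulation over 9952 probe sets, 29 of 50 differences of 2-fold and 50 of 50 of 4-fold were recovered above the median signal. Below it, 1 of 50 and 17 of 50 were recovered. Only these sets of 50 were changed, far fewer than the 1687 called in the data. The adjustment is stricter where fewer probe sets change, so these counts do not give the power of the real comparison.

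**Figure D1:**
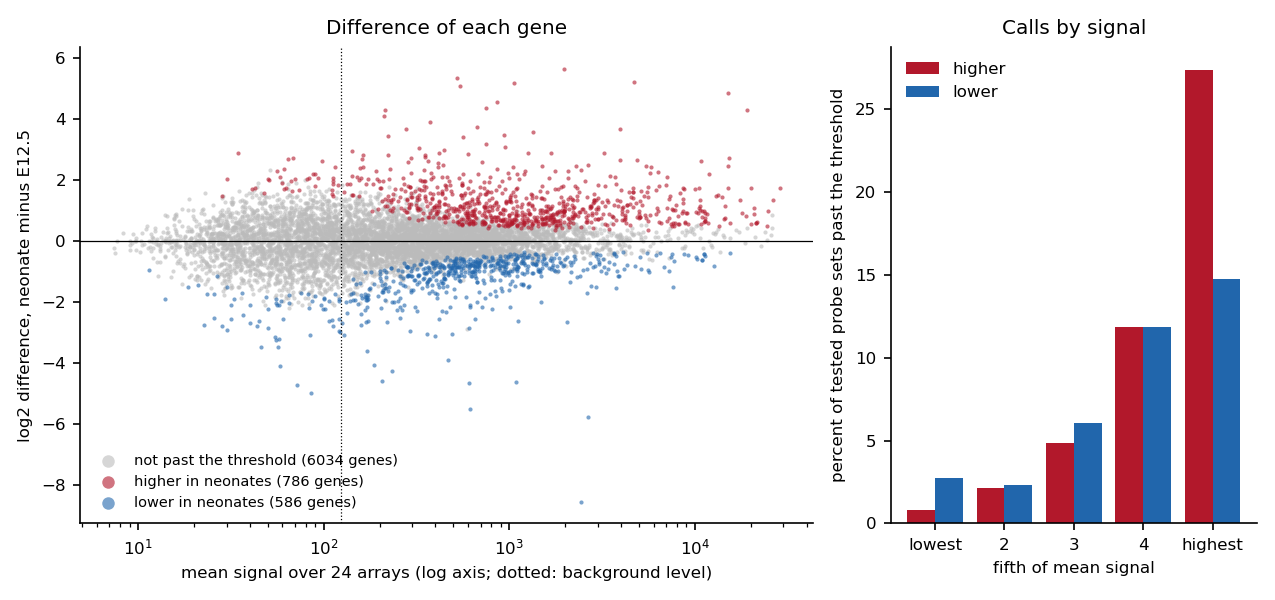
Left, each of the 7406 tested genes by its mean signal over 24 arrays (log axis) and its log2 difference between neonate and E12.5, with 786 higher genes in red and 586 lower in blue; the dotted line is the background level of 124.6. Right, the percent of tested probe sets called higher and, in separate bars, lower in each of 5 classes of mean signal. In the highest class 545 were higher and 293 lower, which together make 42.1%.

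Contractile and junction genes rose in part. Of 18 measured genes of the Z-disc and costamere, the structures that anchor the sarcomere and tie it to the membrane, 9 rose and 1 fell (median log2 difference 0.65, against 0.03 over all genes). Fhl2, a LIM-domain protein of the Z-disc, gave 1536, 1611 and 1751 on the E12.5 arrays and 4956, 5569 and 5604 on the neonate arrays, a rise of 1.72 ± 0.13 (SE) on the log2 scale (limma adjusted p = 5.72e-10). The groups were far apart beside their spread. Xirp1, an actin-binding protein of the intercalated disc and Z-disc, rose by 1.80 ± 0.21, from 982, 1526 and 891 to 3916, 4123 and 3504. The dystrophin-associated Sgca and Sspn rose by 1.71 ± 0.17 and 1.43 ± 0.17. On the other hand Csrp3, a stretch-related LIM protein, gave 6582, 5367 and 7175 and then 7869, 5326 and 7300.2 (log2 difference 0.09 ± 0.18, adjusted p = 0.819), and the ranges overlapped.

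In the thick filament and M-band, 4 of 8 measured genes rose and 0 fell. The atrial-type heavy chain Myh6, the fast motor of the adult mouse ventricle, rose by 1.35 ± 0.22, from 8737, 10140.3 and 10076 to 21506, 26172 and 26213, with no overlap. The slow heavy chain Myh7 gave 30040.4, 21124 and 23985 and 22726, 28603 and 28492, values that overlap (adjusted p = 0.903). Its later means were 11013 ± 2909 (SD, n = 3) at 1 week and 4701 ± 878 at 4 weeks. Myom1, which crosslinks the M-band, rose by 0.97 ± 0.15. Among 13 thin filament genes 2 rose and 3 fell. The cardiac troponin I gene Tnni3 rose by 1.74 ± 0.22, from 7339.6, 7052 and 6763 to 23268, 23933 and 23405, and troponin T2 (Tnnt2) by 0.88 ± 0.17. The skeletal actin gene Acta1 went the other way and fell by 1.51 ± 0.23, from 3484, 4776 and 3984 to 1275, 1423 and 1597 (adjusted p = 2.71e-05). Its neonate values were the lowest 3 of all 24 arrays. Cardiac actin, Actc1, at 22351, 18389 and 18855 and then 21749, 23777 and 26430.1, did not pass (adjusted p = 0.35).

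Of 13 genes of the intercalated disc, the junction that couples myocytes end to end, 5 rose and 0 fell. Plakoglobin (Jup) rose by 1.68 ± 0.19, alpha-catenin (Ctnna1) by 1.24 ± 0.13 and desmoplakin (Dsp) by 1.04 ± 0.17. Gja1, the main ventricular gap junction protein, gave 7053, 8369 and 8414 at E12.5 and 14403, 14391 and 12005 in neonates (log2 rise 0.78 ± 0.15, adjusted p = 0.000527). N-cadherin (Cdh2) and vinculin (Vcl) did not pass, with 0.26 ± 0.22 and 0.34 ± 0.16.

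Calcium handling genes rose in 7 of 19 cases and fell in 1 (median 0.86). The ryanodine receptor Ryr2, the calcium release channel of the sarcoplasmic reticulum, gave 678, 1123 and 1098 at E12.5 and 3906, 4358 and 3734 in neonates, a rise of 2.08 ± 0.23 (adjusted p = 3.34e-07). The pump Atp2a2, which refills that store, rose by 1.74 ± 0.23 and the calcium buffer Casq2 by 1.58 ± 0.17. S100a1, a calcium sensor that acts on both, rose by 2.25 ± 0.14, from 363, 533 and 469 to 2073, 2049 and 2277, with group means of 3840.0 at 1 week and 7125 at 4 weeks. The sodium-calcium exchanger Slc8a1, the route of calcium out of the cell, differed by 0.01 ± 0.17 and its values, 5765, 6457 and 7421 against 6831, 7206 and 5684, overlapped.

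Ion channels of the membrane rose in part. Of 23 potassium channel genes 9 rose and 0 fell, and 10 were under the background level in both groups. Kcnj11, the pore of the ATP-sensitive potassium channel, gave 76.4, 76.6 and 82 at E12.5, all under the background level of 124.6 set by non-mouse control probe sets, and 284, 545 and 403 in neonates. Against that level the rise was at least 3.18-fold (log2 fit 2.34 ± 0.28, adjusted p = 1.32e-06). Abcc8, a regulatory subunit of such channels, rose from 161, 95.4 and 116, of which 2 lay under the background level, to 374, 345 and 304, and Kcnq1, which carries the slow repolarising current, rose by 1.71 ± 0.30. Kcnj8, the other pore subunit, lay under the background level at E12.5 and at least 2.21-fold above it in neonates. Kcne1, the partner subunit of Kcnq1, gave 538, 408 and 544.1 and 1084, 1106 and 941, with no overlap, yet did not pass (adjusted p = 0.0729). Of 14 sodium, chloride and proton transport genes 5 rose and 1 fell; the chloride-bicarbonate exchanger Slc4a3 rose by 1.58 ± 0.18, the sodium pump regulator Fxyd1 by 1.36 ± 0.15, and the pump subunit Atp1b3 fell by 0.75 ± 0.14.

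Of 36 genes of adrenergic, muscarinic and cyclic AMP signalling 11 rose and 1 fell. Without E12.5 array 2 the 11 rises were 7. Cyclic AMP is the second messenger of adrenaline. The list also holds inhibitory members, so its counts give no direction of signalling. The kinase subunit Prkaca rose by 1.36 ± 0.15, from 1042, 1091 and 893 to 2398, 2836 and 2503, and the cyclase Adcy9 by 1.22 ± 0.18. The regulator Rgs2, which ends G protein signals, rose by 1.79 ± 0.30. Gnai3, an inhibitory G protein subunit, fell by 1.42 ± 0.29, from 3266, 3452 and 3136 to 1371, 965 and 1398, and the ranges were well apart.

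Genes of lipid handling outside the oxidation pathway itself, such as uptake, storage and ketone use, had the highest share of rises of 56 functional lists. Of 25 measured, 16 rose and 1 fell (median 1.31). Fabp3, the fatty acid binding protein of muscle, gave 1856, 1741 and 2093 at E12.5 and 8664, 15263 and 14658 in neonates, a rise of 2.72 ± 0.22 (adjusted p = 1.8e-09). Neonate array 1 was the lowest of its group for this gene and still above all E12.5 arrays. Plin4, a protein of lipid droplets, lay under the background level at E12.5, at 15.6, 20.6 and 21.5, and gave 210.3, 339 and 229 in neonates, at least 2.04-fold above that level. The lipase Lipe rose from 37.8, 57.3 and 22.4 to 274, 284 and 351, at least 2.42-fold by the same measure. Lipe also stands in the adipocyte marker list, in which 3 of 8 genes and the summed signal rose. The part of fat cells in the rise of Lipe was not tested. Oxct1, the enzyme by which the heart uses ketone bodies, gave 1065, 1204 and 997 and 1448, 846 and 982, which overlap (adjusted p = 0.947). Its mean was still 1302 ± 386 at 1 week and reached 6397 ± 294 at 4 weeks.

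Glucose genes moved in both directions. Among 22 genes of glucose uptake and glycolysis 5 rose and 4 fell (median 0.08). Slc2a1, the glucose transporter of embryonic tissue and red cells, fell from 1522, 1321 and 1217 to 133, 69.4 and 36.6 (adjusted p = 0.000362), with neonate arrays 2 and 3 under the background level. The insulin-responsive transporter Slc2a4 rose by 1.79 ± 0.25, from 112, 359 and 179.5 to 824, 629 and 581. The muscle isoforms Pfkm and Eno3, of phosphofructokinase and enolase, rose by 1.84 ± 0.16 and 1.495 ± 0.15. Bpgm, which makes the red cell metabolite that loosens oxygen from haemoglobin, fell by 2.56 ± 0.38, and erythroid markers fell beside it. Lactate dehydrogenase A (Ldha), at 11249, 12516 and 11911 and then 13652, 11256 and 10654, had a log2 difference of -0.01 ± 0.16, with a 95% interval within 1.5-fold either way. Pkm, the last enzyme of the pathway, also stayed within that bound, at 0.21 ± 0.14.

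Of 21 peroxisome genes 6 rose and 0 fell. Phyh, which shortens branched fatty acids, gave 404, 787 and 673 and then 2680.0, 3601 and 2233 (log2 rise 2.22 ± 0.21), and Pex11a, which divides peroxisomes, rose from 59.4, 55.4 and 128, of which 2 lay under the background level, to 352, 363 and 256. Of 30 antioxidant and glutathione genes 10 rose and 4 fell. The glutathione transferases Gstm1, Gstm3 and Gsto1 rose by 1.67 ± 0.17, 1.40 ± 0.18 and 1.24 ± 0.18. Superoxide dismutase 1 (Sod1) fell by 1.49 ± 0.34, from 4310.4, 1690.2 and 3289.7 to 1185, 1015 and 902, with all neonate arrays under the lowest E12.5 array. In 41 lysosome and autophagy genes there were 8 rises and 0 falls (5 rises without neonate array 2, and 5 with only the 6 arrays fitted). Smpd1, a sphingomyelinase, rose by 1.17 ± 0.15. In the mitochondrial ribosome, of 38 genes 3 rose (5 with the background filter or with a floor of 50) and 3 fell. Each count of 3 was 7.9%, against 10.6% higher and 7.91% lower over all genes. The median of the 38 was 0.06, and 14 had a 95% interval within 1.5-fold, a bound met by 9.01% of all genes. Only 1 of the 38 was under the background level in both groups, against 2055 of all 7406 genes. Intervals were narrower at higher signal, so the shares are not of like genes. The 3 falls became 1 without E12.5 array 1 or 3 or without neonate array 1 or 2. Mrpl4 rose by 1.11 ± 0.15 and Mrps33 fell by 0.79 ± 0.19.

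**Figure D2:**
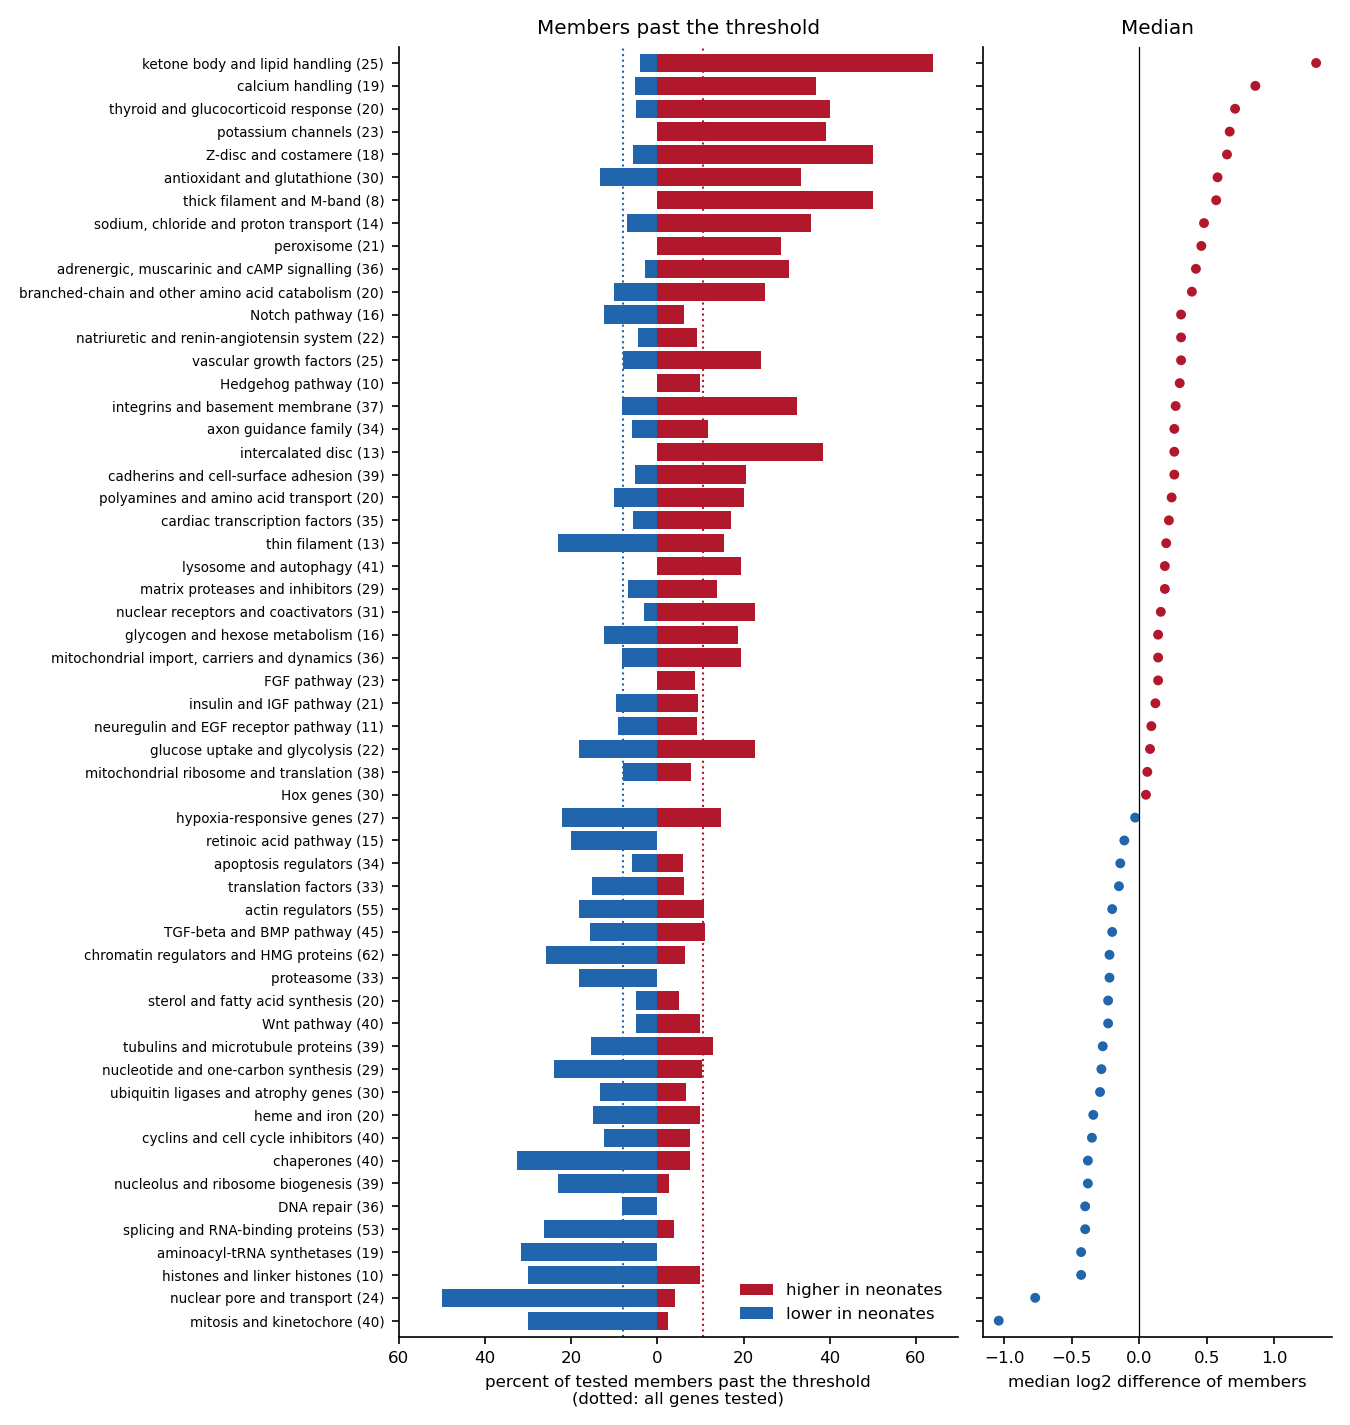
For 56 gene lists, left, the percent of tested members (number in brackets) that rose (red) or fell (blue) past an adjusted p of 0.05, with dotted lines at 10.6% and 7.91% for all genes tested, and right, the median log2 difference of the members. Ketone and lipid handling has the highest median (1.31) and mitosis and kinetochore the lowest (-1.04).

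Hormone-responsive genes were among the rises. In a list of 20 thyroid and glucocorticoid response genes 8 rose and 1 fell (median 0.71). Zbtb16, a transcription factor induced by glucocorticoid in many tissues, gave 3.1, 73.3 and 80.9 at E12.5 and 1009, 345 and 409 in neonates, at least 4.19-fold above the background level (adjusted p = 5.85e-06). All neonate arrays were above all E12.5 arrays, with array 1 the highest. The kinase Sgk1 rose by 1.74 ± 0.26, from 233, 354 and 316 to 975, 1017 and 968, and the clock gene Per1 from 41, 157 and 79.7, of which 2 lay under the background level, to 362, 519 and 330.2. The metal-binding Mt1 rose by 2.11 ± 0.24, while Mt2, at 2674, 1432 and 1168 and then 4188, 2574 and 2314, overlapped and did not pass (adjusted p = 0.0764). The exception in this list was the stress gene Gadd45a, which fell by 1.70 ± 0.32, from 537, 464 and 335 to 76.9, 180.3 and 176. Of 31 nuclear receptors and coactivators 7 rose and 1 fell. Ppara, the receptor that drives fatty acid oxidation genes, gave 168, 234 and 179 and then 823, 999.7 and 1008, a rise of 2.30 ± 0.18 (adjusted p = 9.44e-10). Nr1d2, a repressor of the clock, rose by 1.22 ± 0.26, whereas Nr1d1, its close relative, did not pass (0.39 ± 0.25).

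Many of the lists with most falls belonged to the nucleus, to RNA and to protein synthesis. Among 24 genes of the nuclear pore and of nuclear transport 12 fell and 1 rose (median -0.77), a share of falls well above the 7.91% of all genes. Cse1l, the exportin that returns importin alpha to the cytoplasm, gave 565, 638 and 1028 at E12.5 and 255, 270.1 and 284 in neonates, and fell by 1.42 ± 0.30 (adjusted p = 0.00124). All neonate arrays lay under all E12.5 arrays. Nup54, a protein of the central channel, fell from 422, 425 and 331 to 98.5, 64.8 and 148, with 2 neonate arrays under the background level; without neonate array 2 its adjusted p was 0.0772. The gene that rose was Lmna, which encodes lamins A and C of the nuclear envelope and is known to increase as cells differentiate, at 2038, 1643 and 1849.9 and then 4863, 4398 and 4359 (log2 rise 1.30 ± 0.18). Emerin (Emd), its partner at the inner membrane, differed by -0.10 ± 0.22 and did not pass.

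Of 53 splicing and RNA-binding genes 14 fell and 2 rose (median -0.40). Igf2bp1, an oncofetal protein that stabilises growth-related mRNA, fell by 3.12 ± 0.58, from 2118, 2569 and 2728 to 363, 389 and 161 (adjusted p = 0.000344). The core spliceosomal Snrpg fell by 1.43 ± 0.20 and the splicing factor Srsf1 by 1.53 ± 0.34, from 425, 638 and 526 to 171, 155 and 223, with no overlap. The rises were Cirbp, which is induced by mild cold in many cells, and Rbm39. Cirbp gave 872, 857 and 837 at E12.5 and 2245, 2599.7 and 2456 in neonates (log2 rise 1.51 ± 0.16, adjusted p = 1.58e-07), with replicates close together at both ages.

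In the nucleolus, where ribosomes are assembled, 9 of 39 genes fell and 1 rose, and the 9 were 5 without E12.5 array 2 or 3. Npm1, nucleophosmin, fell by 1.504 ± 0.25, from 8675, 7683 and 9468 to 3331, 2755 and 3015, and the box C/D proteins Nop56 and Nop58 by 1.61 ± 0.26 and 1.44 ± 0.41. For Nop58 the call was lost without E12.5 array 2 or 3 or without neonate array 1 (adjusted p 0.0508, 0.0628 and 0.0531). Ribosomal protein genes of high signal moved less or did not pass, and the family was not counted as a list. Rpl19, Rps4x, Rpl8 and Rps18 passed with log2 differences of -0.508 ± 0.147, -0.436 ± 0.147, -0.425 ± 0.139 and -0.416 ± 0.135. Rps7 was called lower too. Rpl19, Rps4x, Rpl8, Rps18 and Rps7 each lost the call without neonate array 2. Rps3a1 gave 19232, 18209.5 and 18107 and then 12831, 11820.3 and 10838 (it fell by 0.65 ± 0.17), Rpl7 fell by 0.61 ± 0.14 and Rps3 by 0.53 ± 0.13, while Rps24, Rps28 and Rplp0 did not pass and had 95% intervals within 1.5-fold (-0.17 ± 0.18, -0.14 ± 0.17 and -0.06 ± 0.15). Of 19 aminoacyl-tRNA synthetases, which load amino acids onto tRNA, 6 fell and 0 rose (median -0.43), among them Nars, Qars and Gars, lower by 1.27 ± 0.24, 0.79 ± 0.19 and 0.76 ± 0.19. Among 33 translation factors 5 fell (15.2%, against 7.91% of all genes) and 2 rose (6.1%, against 10.6%). The 5 falls became 2 without E12.5 array 1 or neonate array 2 or 3, and 3 without E12.5 array 3. Eef1a2, the muscle and nerve form of elongation factor 1A, rose by 2.44 ± 0.26, from 876, 698 and 734 to 4283, 3853 and 4384, and reached a mean of 24039 ± 4489 at 4 weeks. Eef1a1, the form it replaces, gave 25474, 18243 and 15564 and 20661, 24136 and 26643, which overlap, and had a mean of 15190.3 ± 929 at 4 weeks.

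Chaperones fell in 13 of 40 cases and rose in 3 (median -0.38). Hsp90aa1, the inducible cytosolic Hsp90, fell by 1.57 ± 0.37, from 11132, 9573 and 9499 to 3869, 2243 and 4469.7 (adjusted p = 0.00341), and Hsph1, a partner of Hsp70, by 1.65 ± 0.24. In the endoplasmic reticulum the disulfide isomerases Pdia6 and Pdia4 fell by 1.90 ± 0.24 and 1.51 ± 0.35. Against these stood Bag3, the cochaperone that serves the Z-disc, which rose by 1.35 ± 0.17, from 488, 455 and 464 to 1001, 1381 and 1232. The 3 rises of the list became 1 without E12.5 array 1 or 3 or without neonate array 2, and 5 with the background filter. The muscle small heat shock protein Hspb2 did not pass (-0.09 ± 0.12). The proteasome had 6 falls and 0 rises in 33 genes. The falls were 3 without E12.5 array 2 and 2 without neonate array 3. Of the 33, 12 had an interval within 1.5-fold, and only 1 was under the background level in both groups.

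Of 40 mitosis and kinetochore genes 12 fell and 1 rose, and the median of -1.04 was the lowest of the 56 functional lists, with 2 of 40 differences above 0. The count of 12 was 6 without neonate array 2, 7 without neonate array 3, 19 with a floor of 50 and 21 when only the 6 arrays were fitted. Smc2, a condensin subunit, gave 1022, 1335 and 1342 at E12.5 and 266, 241 and 249 in neonates, and fell by 2.28 ± 0.51 (adjusted p = 0.0023). Mki67, the proliferation marker, fell by 2.18 ± 0.62, from 1468, 1150.4 and 1318 to 420.3, 228 and 247. Neonate array 1 was the highest of its group for Mki67 and for Cks2 (1706, 516 and 695, after 3234, 3412 and 3578 at E12.5). The call of Mki67 was lost without E12.5 array 1 or without neonate array 2 or 3 (adjusted p 0.0503, 0.0664 and 0.0567), and that of Cks2 without E12.5 array 3 or neonate array 2 or 3 (0.0525, 0.1 and 0.066). All neonate arrays still gave Mki67 above the background level, and its mean at 4 weeks was 76.8 ± 22.

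Among 40 cyclins and inhibitors 5 fell (12.5%, against 7.91% of all genes) and 3 rose (7.5%, against 10.6%). With only the 6 arrays fitted 11 fell. Cdk4, the kinase of the start of the cycle, fell by 1.31 ± 0.26, from a mean of 1232 ± 147 (SD, n = 3) to 502 ± 113, and the E2F partner Tfdp1 by 1.00 ± 0.19. The inhibitor Cdkn1c, an imprinted gene that is high in the embryonic heart, fell by 2.66 ± 0.24, from 9956, 10573 and 12468 to 2261, 1529.5 and 1491 (adjusted p = 2.1e-08). Gas6, a ligand of TAM receptors first found in arrested cells, rose by 2.89 ± 0.19, from 163, 294 and 296 to 1978, 1771 and 1638. Of 62 chromatin regulators and high mobility group proteins 16 fell and 4 rose (median -0.22), and the 16 were 10 without E12.5 array 3 and 9 without neonate array 3. Hmga2, an architectural protein of embryonic and stem cells, fell from 1339.6, 912 and 1289 to 154, 90.3 and 23.9 (adjusted p = 0.000119). On neonate arrays 2 and 3 it lay under the background level. Among histones H2ax and H2az1 fell by 1.48 ± 0.20 and 1.46 ± 0.27, and the linker histone H1f2 rose by 2.07 ± 0.28, from 444, 197 and 448 to 1787, 1335 and 1215. Of 29 genes of nucleotide and single-carbon synthesis, which supply dividing cells, 7 fell and 3 rose, among which Ahcy, which clears the product of methylation, fell by 1.604 ± 0.21 and the adenylate kinase Ak1 of muscle rose by 1.601 ± 0.14.

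RefSeq promoter windows of GRCm38.p6 (250 bases before to 50 after a transcription start) were available for 5904 of the 7406 tested genes, 7551 windows in all, and 11 short motifs were searched in them on both strands. The motif TTTCCCGC, a form of the site read by E2F factors, was in 3.1% of 610 windows of genes that fell, 0.7% of 865 windows of genes that rose, 1.7% of all tested genes' windows and 1.1% of all 32851 windows. A further E2F form, TTTGGCGC, was in 2.0%, 1.0%, 1.0% and 0.5% in the same order; in the 250 bases before the start alone it was in 1.3% of windows of falling genes and 0.8% of rising ones. CACGTG, the E-box read by Myc and related factors, was in 12.8% of windows of falling genes and 7.3% of rising ones, against 9.6% in all tested, and CCAAT in 43.9% and 35.6%, against 37.0%. The ETS form CCGGAAGT was in 6.7% and 3.6%, against 6.5%. The GC box GGGCGG was in 66.7% and 58.7%, against 56.4%, so both sets were above the tested genes. GCATGCGC, of NRF1, was in 5.7% and 3.7%, against 4.5%, and TGACGTCA, the cyclic AMP element, in 1.8% and 2.7%, against 2.6%. AGATAA, of GATA factors, was in 7.7% and 5.7%, against 7.4%. The muscle and energy motifs were rare: TNAAGGTCA, of estrogen-related receptors, was in 0.7% of windows of falling genes and 1.2% of rising ones, against 0.8%, and CTATTTTTA, of MEF2 factors, in 0.2% and 0.6%, against 0.4%. These are shares of letters with no test, a match is not a site, and windows of the same gene can overlap.

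The following windows show TTTCCCGC where it stands in genes named here, with the motif or its reverse complement in capitals and all else in lower case, each 5' to 3' on the strand of the gene. Nop58, Rps3a1 and Srsf1 fell and Pdgfa rose, which shows the same letters in front of genes that moved in opposite directions. The capitals begin 108 bases before the start in Nop58, 51 in Rps3a1, 67 in Srsf1 and 108 in Pdgfa.
Nop58 (chr1:59684756-59685055, plus strand): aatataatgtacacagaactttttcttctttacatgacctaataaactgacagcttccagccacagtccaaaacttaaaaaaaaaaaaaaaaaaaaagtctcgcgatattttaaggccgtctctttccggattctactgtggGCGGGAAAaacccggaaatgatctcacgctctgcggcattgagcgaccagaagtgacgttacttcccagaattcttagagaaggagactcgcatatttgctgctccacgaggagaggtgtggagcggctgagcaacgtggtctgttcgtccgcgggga
Rps3a1 (chr3:86142619-86142918, minus strand): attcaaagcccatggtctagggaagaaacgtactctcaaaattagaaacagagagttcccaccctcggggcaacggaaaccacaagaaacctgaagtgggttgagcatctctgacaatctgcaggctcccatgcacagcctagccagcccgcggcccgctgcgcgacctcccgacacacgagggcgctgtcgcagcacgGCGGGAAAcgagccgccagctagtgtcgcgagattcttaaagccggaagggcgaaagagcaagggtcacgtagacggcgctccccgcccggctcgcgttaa
Srsf1 (chr11:88047123-88047422, plus strand): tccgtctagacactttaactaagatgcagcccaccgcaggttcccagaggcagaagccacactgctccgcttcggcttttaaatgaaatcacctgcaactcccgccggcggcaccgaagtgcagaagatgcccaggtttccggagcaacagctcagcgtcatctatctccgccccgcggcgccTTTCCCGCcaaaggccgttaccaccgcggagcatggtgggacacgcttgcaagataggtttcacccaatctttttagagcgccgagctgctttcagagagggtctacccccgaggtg
Pdgfa (chr5:138994232-138994531, minus strand): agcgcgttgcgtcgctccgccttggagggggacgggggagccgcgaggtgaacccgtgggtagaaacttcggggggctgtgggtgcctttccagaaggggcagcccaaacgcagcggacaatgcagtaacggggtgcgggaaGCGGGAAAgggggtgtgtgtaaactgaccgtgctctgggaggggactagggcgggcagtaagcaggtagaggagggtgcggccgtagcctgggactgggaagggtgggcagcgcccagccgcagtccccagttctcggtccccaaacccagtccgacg

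Transcription factors of heart development moved in both directions. Of 35 measured 6 rose (17.1%, against 10.6% of all genes) and 2 fell (5.7%, against 7.91%). Sox11, a factor of embryonic progenitors, gave 2343, 3360.0 and 3121 at E12.5 and 194, 167 and 218 in neonates, and fell by 3.92 ± 0.58 (adjusted p = 2.19e-05). Gata6 rose by 1.62 ± 0.19, from 1165, 849.6 and 862 to 2969, 3408 and 2445, Mef2c by 1.62 ± 0.23 and Hand2 by 1.64 ± 0.30, and their groups did not overlap. Mef2a and Sox4 did not pass (0.07 ± 0.22 and 0.32 ± 0.35). Of 30 Hox genes, which pattern the body axis, 0 rose and 0 fell in limma and their median was 0.05, with 19 of the 30 under the background level in both groups. Without neonate array 1, 2 rose. At an unadjusted p under 0.05 2 of the 30 passed, and when the variance was fitted without a trend on intensity 1, Hoxd8, rose at the adjusted threshold (named after its value was seen).

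In signalling pathways of the embryo, beside 10.6% higher and 7.91% lower over all genes, there were 4 rises and 2 falls in 40 Wnt genes (the rises were 2 without E12.5 array 1 or 3 and 1 without neonate array 3), 1 and 2 in 16 Notch genes, 2 and 0 in 23 FGF genes and 1 and 0 in 10 Hedgehog genes. Under the background level in both groups were 16 of the 40 Wnt, 1 of the 16 Notch, 15 of the 23 FGF and 3 of the 10 Hedgehog genes. Few calls among such dim genes do not show that they stayed the same. Fzd3, a Wnt receptor, fell by 1.42 ± 0.29, from 964, 935 and 706 to 452, 233 and 316. Among 45 genes of TGF-beta and BMP signalling 5 rose and 7 fell. The falls were 4 without E12.5 array 2 or 3 or neonate array 1 and 3 without neonate array 2, and the rises 3 or 2 without each of the arrays other than E12.5 array 2. Id2, a target of BMP that holds back differentiation, fell by 2.19 ± 0.31, from 3760.0, 4605 and 5751 to 1043, 986 and 1026 (adjusted p = 1.04e-05), and the mediator Smad2 by 1.06 ± 0.18. In the retinoic acid pathway 3 of 15 fell and 0 rose, and 8 of the 15 were under the background level in both groups. The binding protein Crabp1 gave 168, 228 and 228 and then 45.7, 21.3 and 25.9, all neonate values under the background level, a fall of at least 1.65-fold to that level. In the insulin-like growth factor pathway the ligand Igf2 differed by 0.12 ± 0.15, while the binding protein Igfbp2 fell by 1.38 ± 0.36 and the clearance receptor Igf2r by 0.94 ± 0.16, from 3929, 3706 and 3722 to 2142, 1803 and 2004.

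Vessels, matrix and adhesion changed beside the marker sums of endothelium and fibroblasts given above, and the part of cell number in each was not tested. Of 37 integrin and basement membrane genes 12 rose and 3 fell (5 fell with only the 6 arrays fitted). Itga7, the laminin receptor of mature muscle, gave 53.4, 71.3 and 50.5 and then 379, 337 and 327, at least 2.78-fold above the background level, and the laminin chain Lama2, its ligand in muscle, rose by 1.67 ± 0.16. Itga4, the receptor by which the epicardium attaches to the myocardium, fell from 393, 377 and 246 to 32.6, 39.5 and 54, at least 2.66-fold. Of 39 cadherins and surface adhesion proteins 8 rose and 2 fell. Cldn5, the tight junction protein of endothelium, rose from 13.9, 32.4 and 27.5 to 695, 1262 and 918, at least 7.47-fold, and its mean fell again from 1775 ± 340.3 at 1 week to 449.6 ± 72.2 at 4 weeks. Cdh13, a cadherin of vessels and myocytes, rose from 26.9, 31.6 and 37.9 to 749, 749.9 and 742, at least 5.99-fold, and Cd24a, a surface protein of progenitors, fell by 2.19 ± 0.23.

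Of 25 vascular growth factors and receptors 6 rose and 2 fell. Vegfa, the main endothelial growth factor, gave 162, 219 and 162 at E12.5 and 397, 529.1 and 473 in neonates (rise 1.37 ± 0.26, adjusted p = 0.000394), and Pdgfa, a ligand that acts on fibroblast precursors, rose by 1.48 ± 0.23, from 658, 628 and 515 to 1378, 1687 and 1988. Its receptor Pdgfra did not pass (-0.16 ± 0.25). The endothelial Sox18 rose by 2.28 ± 0.17 and Cdh5 by 1.13 ± 0.17, while Npr3, which marks the endocardium, fell by 1.03 ± 0.23. The fibrillar collagen genes Col1a1 and Col1a2 rose by 2.64 ± 0.15 and 2.32 ± 0.15 and decorin (Dcn) by 2.60 ± 0.14, from 1166, 1091 and 1048 to 7175, 5689 and 7342, whereas Fbln1 did not pass (-0.17 ± 0.18). Of 8 smooth muscle and pericyte markers 5 rose (Smtn, Rgs5, Kcnj8, Myh11 and, named after its value was seen, Des) and 2 fell (median 1.03), although their summed signal was lower in neonates. Myh11, of mature smooth muscle, lay under the background level at E12.5 (21.1, 9.4 and 9.5) and gave 129.9, 235 and 178 in neonates, at least 1.41-fold above it, while Cnn1 fell by 2.31 ± 0.54 and Tagln by 1.43 ± 0.18, from 4224, 3910.1 and 4232 to 1402, 1414 and 1818, and Acta2 did not pass (-0.05 ± 0.25). Cnn1, Tagln and Acta2 are also expressed by embryonic myocytes. Among 17 macrophage and granulocyte markers 4 rose and 0 fell; the complement genes C1qa and C1qc rose by 1.68 ± 0.17 and 1.23 ± 0.22, and C1qb, under the background level at E12.5, was at least 2.76-fold above it in neonates.

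Red cell transcripts were lower in neonates. Of 15 erythroid markers 12 fell and 0 rose, and 3 did not pass. The embryonic alpha-like globin Hba-x gave 29696, 17730.0 and 11872 at E12.5 and 389, 415 and 235 in neonates. The anion exchanger Slc4a1 of the red cell membrane fell by 4.67 ± 0.50, from 5620.1, 2707 and 2374 to 169.8, 153 and 84.2, and carbonic anhydrase 2 (Car2) fell by 4.63 ± 0.26. The adult globins Hba-a1 and Hbb-b2, at 19683, 23165 and 15562 and 21357, 11552 and 13047 at E12.5 and 19055, 21680.4 and 22744 and 16585, 11006 and 10839.9 in neonates, overlapped and did not pass (adjusted p = 0.858 and 0.777). E12.5 array 1 was the highest of the 3 for all of these except Hba-a1. Heme synthesis split by isoform: the erythroid Alas2 fell by 2.00 ± 0.48, from 7139, 3202 and 2468 to 1379, 800.7 and 792, and the housekeeping Alas1 rose by 1.61 ± 0.19, from 1175, 1109.5 and 807 to 2263, 3460.0 and 3799. Prdx2, an abundant red cell peroxidase, was lower by 0.63 ± 0.17, but its adjusted p was 0.0927 without E12.5 array 1.

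**Figure D3:**
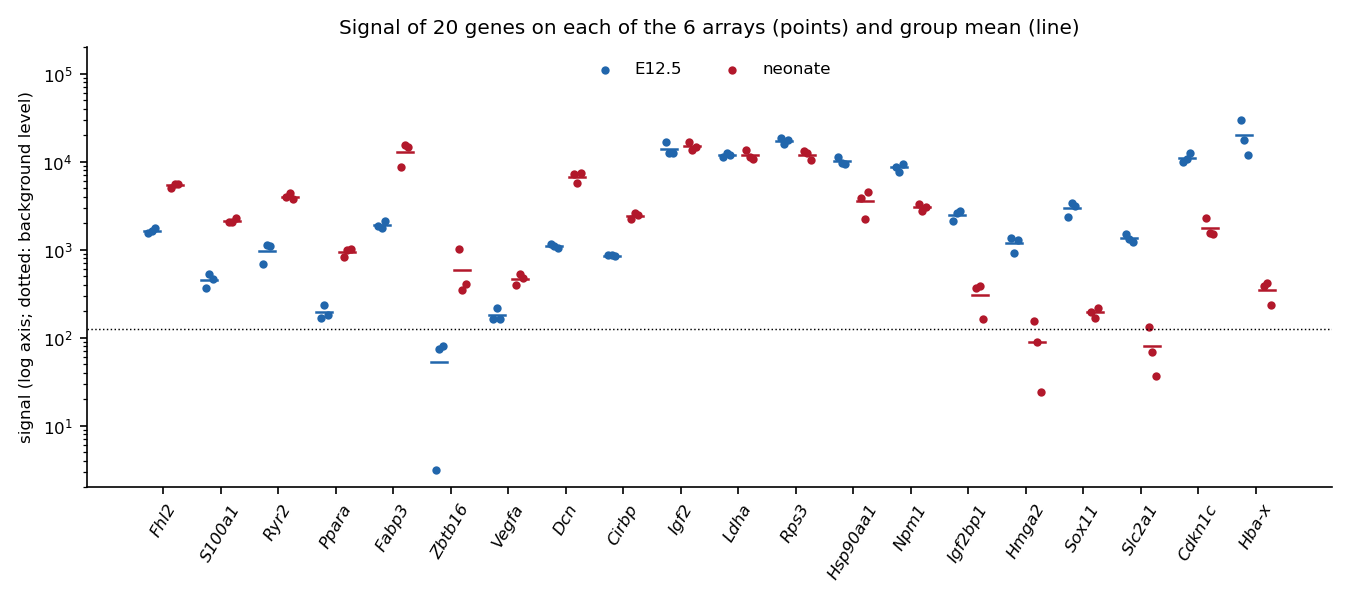
Signal of 20 genes on each of the 3 E12.5 arrays (blue) and 3 neonate arrays (red), on a log axis, with a short line at each group mean and a dotted line at the background level of 124.6. Igf2 and Ldha overlap between the ages, while the groups of the other genes shown are apart.

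Beside the changes, 789 probe sets (7.93%) and 667 genes (9.01%) had a 95% interval of the difference within 1.5-fold either way. Those of highest signal were Actg1, Tpi1, Rps24, Tuba1c, Rps28, Rplp0, Ldha, Tpt1, Igf2 and Pkm, which encode cytoskeletal, glycolytic and ribosomal proteins and a growth factor. Some of them changed later. Igf2, the fetal growth factor, gave 16503, 12570.4 and 12515 at E12.5 and 16554, 13585 and 14694 in neonates, and its mean was 13500.1 ± 814 at 1 week and 2589 ± 360.2 at 4 weeks. The tubulin Tuba1c went from 15026 ± 2033 at E12.5 and 13521 ± 2565 in neonates to 6028 ± 197 at 4 weeks. Myl7, the atrial myosin light chain, overlapped between the ages at 20457, 15246 and 15479 and 16465, 16756 and 16889 and had a mean of 852 ± 142 at 4 weeks, but its SE of 0.92, which takes in the spread among adult arrays, makes no statement about small changes possible.

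For most genes that changed, E12.5 was the exception among the ages. All 3 E12.5 arrays lay above the other 21 arrays for 546 of the 750 lower probe sets (72.8%) and under them for 584 of the 937 higher ones (62.3%), against 10.1% and 6.88% of all tested. The neonate arrays lay above the other 21 for 25 higher probe sets and under them for 17 lower ones, out of 63 (0.633%) and 30 (0.301%) among all tested. These counts use the arrays of the comparison itself and are a description. Named after their values were seen, the RNA-binding Pcbp2, Fhl1, Gata6, Cirbp, Cpt1a and Rbm39 had neonate arrays above all others. Neonates were not tested against later ages. Cirbp had group means of 2434 ± 179 in neonates, 1233 ± 122 at 1 week and 929 ± 86.7 at 4 weeks, the last near its E12.5 mean of 855 ± 17.6. Cpt1a, the liver-type enzyme of fatty acid entry into mitochondria, went from 661 ± 109.8 to 2334 ± 550.2 and then 536 ± 91.6 at 4 weeks. Acta1, Alad and, named after their values were seen, Tsc22d1 and Ackr3 had neonate arrays under all others. Ackr3, a scavenging chemokine receptor, gave means of 1714 ± 261 at E12.5, 283 ± 72.9 in neonates and 903 ± 49 at 4 weeks.

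**Figure D4:**
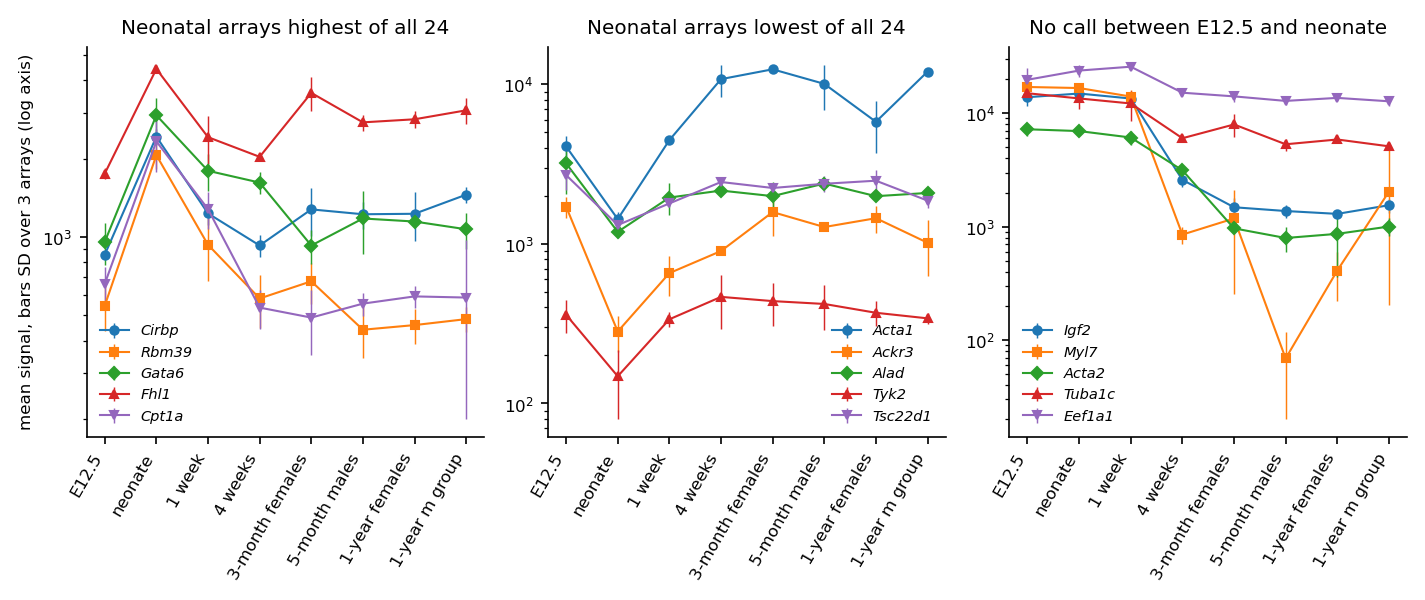
Group means on a log axis over the 8 groups, with bars of 1 SD over 3 arrays, for 5 genes whose neonate arrays were above all other 21 arrays (left), 5 whose neonate arrays were under all others (middle) and 5 that did not pass between E12.5 and neonate (right). A downward bar longer than 90% of its mean is cut there, since a log axis has no 0. Cirbp and Rbm39 peak in neonates, Acta1 and Ackr3 dip, and Igf2 and Myl7 fall at 4 weeks.

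The comparison of 4 weeks with 1 week shares no array with that of neonate and E12.5. Of the 937 probe sets higher in neonates, 193 (20.6%) were also higher at 4 weeks than at 1 week and 57 (6.1%) lower. Of the 750 lower in neonates, 108 (14.4%) were lower again and 28 (3.7%) higher. Over all tested probe sets the shares were 4.44% higher and 4.69% lower, and over genes 5.09% and 5.14%. The shares over all tested probe sets came from the fit of all arrays, in which both comparisons use the same variance estimate. With only the 1-week and 4-week arrays fitted, the lower probe sets held 71 later falls and 15 later rises. In that fit the higher ones held 38 falls and 138 rises. No share over all tested probe sets is given for that fit, so its counts have no base. In the fit of all arrays, 43.7% of the 442 later rises had risen before. Of the 467 later falls, 23.1% had fallen before. Col1a1, which rose across birth, was among the genes with a later decline, with means of 15471 ± 2430.4 at 1 week and 4897 ± 412 at 4 weeks.

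Some genes crossed the background level entirely. On all E12.5 arrays under it and on all neonate arrays above it were 100 probe sets, of which 77 passed the test, and 99 went the other way, of which 46 passed. Among the former were Ptgds, the prostaglandin D synthase, at 39.1, 43.3 and 60.1 and then 1871, 1436 and 1865, at least 13.73-fold above the level, and the genes of the matrix proteins Tnxb, Dpt and Ogn, at least 6.52, 5.36 and 5.21-fold. Among the latter outside the red cell lineage were the steroid dehydrogenase Hsd3b6, at 1103, 302 and 413 and then 9.7, 20.5 and 4.5, with E12.5 array 1 the highest, the calcium sensor Vsnl1, from 449.7, 821 and 592 to 106, 86.7 and 97.8, and the stem cell glycoprotein Prom1, from 406, 462 and 394 to 61.4, 116 and 73.9. A further 2254 probe sets lay under the level on all 6 arrays, and 41 of them passed, which rests on differences within the range of the non-mouse controls.

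Where a gene had more than 1 probe set, agreement was partial. Of 1036 such genes 326 had at least 1 probe set past the threshold, and 63 had every probe set past it in the same direction. Of the 1036, 2 had probe sets past it in opposite directions, Ctse and Iqgap1, named after their values were seen. For Ctse the log2 differences were -3.84 ± 0.84 (SE), 1.09 ± 0.17 and 1.18 ± 0.19, so the array gives no direction for it. Among the autosomes the share of genes past the threshold ran from 14.4% on chromosome 14 to 23.3% on chromosome 10, and of 7 genes on chromosome Y 0 passed. Chromosome X had 6.8% higher and 13.1% lower with a median of -0.15, beside the uneven Xist and Eif2s3y signals of the arrays, whose part in it was not tested.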

How the data were processed

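The data are probe-set signals from 24 single-channel arrays of FVB mouse heart ventricle, 3 in each of 8 groups, named from the sample titles. The deposited table holds linear intensity values already scaled by the authors: from the values, each array's trimmed mean, leaving out zeros, lay between 500.44 and 500.60. Which software made them is not given in the sources used here. Background handling, saturation and batches are unknown, and control probe sets carry Affymetrix names. Of 12654 probe sets, 66 controls and 2611 at 0 on all arrays were left out. Signals were raised to a floor of 14.2 (25th percentile of the table) and put on the log2 scale. Probe sets above the floor on at least 3 of 24 arrays were tested in limma 3.58.1 (R 4.3.3) with 1 mean per group over all 24 arrays, eBayes with an intensity trend and Benjamini-Hochberg adjustment over 9952 probe sets, at a threshold of 0.05, two-sided. Differences are neonate minus E12.5 with SE from 16 residual degrees of freedom plus a prior of 7.58, and a floor understates changes of dim genes. The comparison was tested on simulated data.

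Platform annotation gave 1 gene symbol for 8724 probe sets, several for 346 and none for 907, and 8708 matched RefSeq, which updated symbols. A gene stands for its probe set of highest mean signal. The background level of 124.6 is the 95th percentile of 19 non-mouse controls, whose highest signal was 193.6, and "at least" folds set the geometric mean of the brighter group against it. Levels of different probe sets were not compared. The members and gene lists were chosen with earlier results of these data known. Named genes are, per list, up to 5 past the threshold with the largest change and up to 2 of highest signal that did not pass, all members of lists with under 6 measured, and for the whole table the 10 rises and 10 falls of highest signal under 2-fold, the 10 brightest genes changed by less than 1.5-fold, and 10 crossings of the background level in each direction. Genes outside this are said to be chosen after their values were seen, except Xist and Eif2s3y, used as a check of sex. Promoter windows came from RefSeq (GRCm38.p6) and were searched with Python 3.11.15, pandas 2.3.3 and numpy 2.4.6, and plots used matplotlib 3.10.9. Alternatives were other floors, filters, normalization, variance models, arrays and thresholds. Protein sequences and the age in days of neonates were not used here.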

Additional observations from a re-analysis of the deposited data

How the results depend on the processing

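Against 1687 probe sets called (937 higher, 750 lower), the number was 1717 (815 higher, 902 lower) with only the 6 arrays fitted, 1750 with quantile normalization, 1831 with a floor of 50, 1729 with log2(signal + 16), 1689 with no filter, 1755 with the background filter, 1540 without an intensity trend and 1684 with robust eBayes. At an adjusted p under 0.01 there were 1040, of which 410 were lower. Leaving out each array gave 1252 to 1473 calls, of which 520 to 639 were lower. So fitting the 6 arrays alone turned the majority from higher to lower, and the cause was not tested. Of 297 named genes called, 205 kept the call in all alternatives, 86 lost it on leaving out 1 array or more and 81 at 0.01, and 0 of 431 named genes reversed. Of 140 list counts 68 moved by over 1.5 times in at least 1 alternative. The labels give no pairing between samples of the age groups, so no paired analysis was made. Signal over background limits the comparison: 2254 probe sets lay under the background level on all 6 arrays, and 3 arrays a group limit precision for dim genes.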
